A study of Papio anubis with 8 samples.

Results

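Transcript levels in the fetal hippocampus of the olive baboon (Papio anubis), taken at 0.9 of gestation, were compared between 2 sides of an 8-library series. The baseline trio is AMB3, AMB8 and AMB10, the 3 libraries that stand first in the deposited table and whose median is the zero of its normalized values. The other five are AMB4, AMB5, AMB6, AMB7 and AMB9. All 8 libraries of the series thus enter the comparison. The sides were set by library number and not by a measured gene, but with earlier results of these data known. The study concerns fetuses whose mothers had different adiposity and different leptin, the hormone that fat tissue secretes. All 8 labels give the same species, tissue and gestational age, and all describe total RNA prepared with 1 strand-specific kit. They tie no library number to a maternal group, so no maternal group name is used. Nor do they state that the libraries are from separate fetuses, so the p-values below measure the spread between these libraries.

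The hippocampus is the medial edge of the cerebral cortex, and it serves memory and the control of the stress axis. Pyramidal neurons form its CA fields, and granule cells form the dentate gyrus, where neurons are still born late in gestation. A medial signalling centre, the cortical hem, sends Wnt and BMP ligands that set up this region, and Cajal-Retzius cells at its surface guide incoming cells. The adjoining neocortex has layers marked by transcription factors such as CUX2, RORB and FOXP2. In bulk tissue, fewer cells of a type and less RNA per cell cannot be told apart.

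AMB8 and AMB10 were much alike, and AMB3 lay between them and the other five. Total counts were 40584341, 65993401 and 71648654 in the trio and ran from 40404878 to 70629544 in the other five, so depth overlapped. The first principal component of log2 CPM (counts scaled to a total of 1000000) over all tested genes held 41.7% of the variance. The trio lay between -64.5 and -25.2 on it and the other five between 23.2 and 39.5. Spearman correlations were 0.977 to 0.990 within the trio, 0.976 to 0.987 within the other five and 0.956 to 0.976 between sides. These are across genes, which are not independent replicates. RNA of 5 Y-linked genes summed to 365 to 378 CPM in AMB4, AMB6 and AMB9 and to at most 1.34 CPM elsewhere. It was thus present in 3 libraries of the other five and in none of the trio. No 2 libraries agreed within sampling noise. By the chi-square of counts per gene, which grows with depth, AMB3 differed less from AMB9 (76.3) and AMB5 (91.0) than from AMB8 (93.8) and AMB10 (98.95). AMB9 and AMB5 had fewer total counts (40404878 and 45505304) than AMB8 and AMB10, so this order does not show which side AMB3 was nearer. Spearman correlations of AMB3 were 0.977 with AMB8 and 0.979 with AMB10, against 0.968 (AMB7) to 0.976 (AMB9) with the other five.

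**Figure D1:**
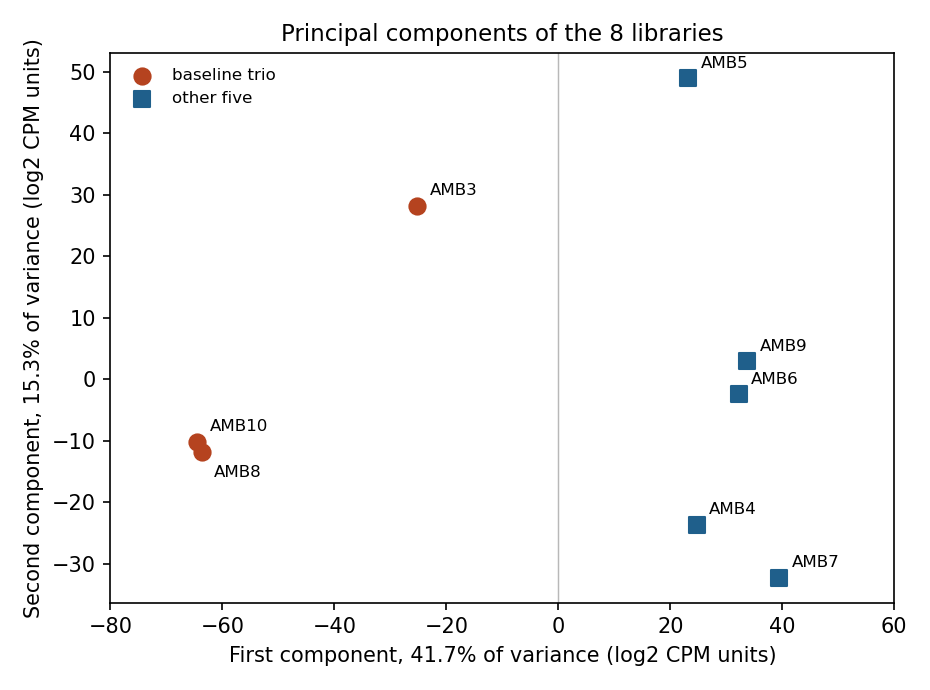
Position of the 8 libraries on the first and second principal component of log2 CPM over all tested genes, in log2 CPM units; circles are the baseline trio and squares the other five. The trio lies left of 0, with AMB3 at -25.2, and the other five lie between 23.2 and 39.5.

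Of 16846 tested genes, 1877 passed the threshold, which is 11.1% of those tested. The threshold was an adjusted p below 0.05 in edgeR's quasi-likelihood test with Benjamini-Hochberg adjustment. The calls were evenly split, with 941 genes (5.59%) higher and 936 (5.56%) lower in the trio. Differences of at least 2-fold were seen in 384 of the higher and 394 of the lower genes, and of at least 4-fold in 120 and 132. The sides did not overlap in 3404 genes (20.2%), 1681 with the trio above (9.98%) and 1723 with the trio below (10.2%). The median log2 difference over all tested genes, trio minus other five, was -0.0029.

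Leaving out 1 library at a time gave 8 further fits, and 552 of the called genes, 256 higher and 296 lower, passed in all of them. A gene is said below to have held when it did so. Without AMB10 the calls were 284 higher and 343 lower, without AMB8 414 and 388, and without AMB9 611 and 668. A comparison of the libraries that lacked Y-linked RNA (the trio against AMB5 and AMB7) was added after the data were seen. It called 70 genes higher and 73 lower. Log2 differences from it are given below for some genes, as values without Y-linked RNA. All of these genes passed in it except PROX1, MEF2C and LEPR. Genes given without such a value include OSTN, CUX2, FIBCD1, NHLH1, HTR1A, RSPO3 and RARB, which did not pass in it (adjusted p from 0.0563 to 0.0961). Of 115 called genes described below, 30 passed in it. With Y-linked RNA as a covariate in the fit of all 8 libraries, 97 of them passed, and 81 of the 84 that held.

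**Figure D2:**
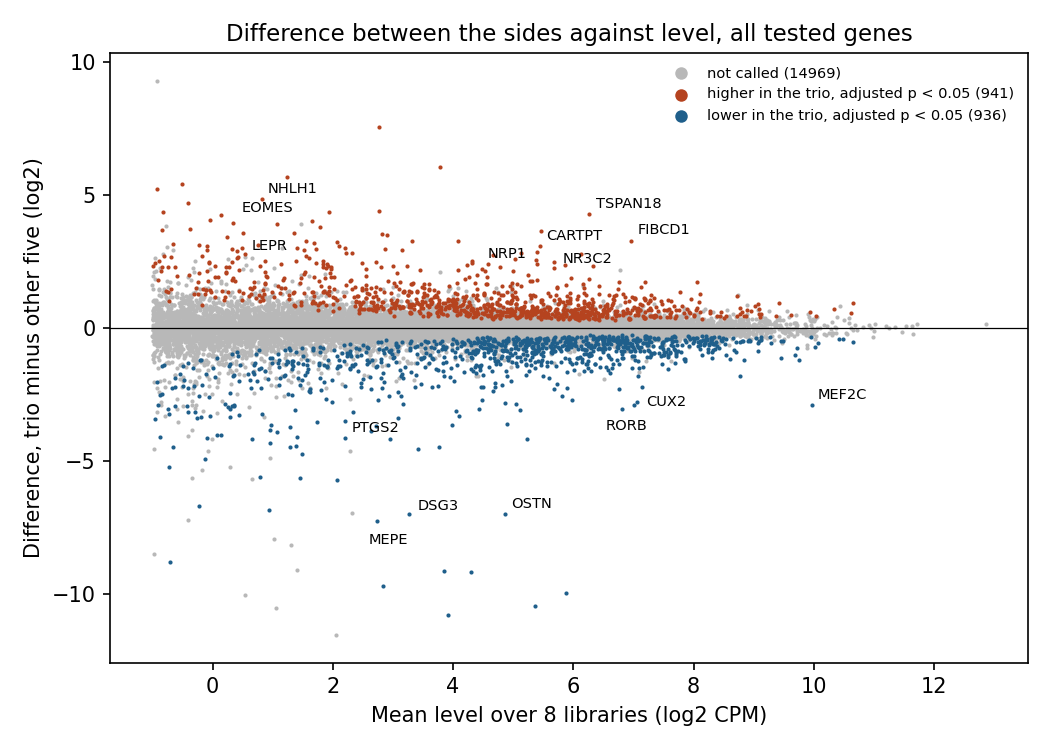
Log2 difference between the sides (trio minus other five) against the mean level over 8 libraries (log2 CPM) for all 16846 tested genes, one point per gene; red points were called higher in the trio (941), blue points lower (936), and grey points were not called. Named points include MEPE, DSG3 and OSTN at about -7 and TSPAN18 and NHLH1 above 4.

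Values below are CPM in the order AMB3, AMB8 and AMB10 for the trio and AMB4, AMB5, AMB6, AMB7 and AMB9 for the other five. Brackets give the log2 difference, trio minus other five, ± its SE, and the adjusted p. Counts of list members called stand beside a share over all tested genes of 11.1%, with 5.59% higher and 5.56% lower. A short list with few or no calls is therefore close to these shares.

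Among genes of the dentate gyrus, more were higher than lower in the trio. Of 13 tested granule cell markers, 6 were higher and 1 lower, with a median log2 difference of 0.88, and 4 and 1 of these held. PROX1, the transcription factor that fixes granule cell identity, lies on chromosome 1, 147799943 to 147853389, minus strand (Panubis1.0). It was at 49.1, 96.8 and 81.8 CPM in the trio and 19.2, 14.4, 20.5, 21.4 and 33.6 CPM in the other five. All 3 trio libraries exceeded the other side (log2 1.80 ± 0.27, adjusted p = 0.00451), a 3.48-fold difference. Among the libraries without Y-linked RNA the log2 difference was 2.08 and did not pass (adjusted p = 0.0538). C1QL2, a secreted synapse organizer of mossy fibres, was at 18.5, 34.2 and 35.7 CPM in the trio and 10.9, 7.56, 12.7, 6.22 and 8.32 CPM in the other five. It did not overlap either (log2 1.69 ± 0.27, adjusted p = 0.00538). NEUROD1, a factor of newly formed granule neurons, stood at 28.3, 82.5 and 63.7 CPM in the trio and 21.5, 22.6, 14.9, 18.4 and 15.01 CPM in the other five. AMB3 was the lowest of the trio but above the other side (log2 1.65 ± 0.29, adjusted p = 0.00804). The adjusted p of NEUROD1 was 0.0812 with Y-linked RNA as a covariate.

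PDYN, which encodes the dynorphin peptides of granule cells, was at 292, 62.6 and 92.8 CPM in the trio and 25.5, 10.9, 31.5, 13.01 and 27.97 CPM in the other five. AMB3 held the highest level, and both other trio libraries were also above the other side (log2 2.78 ± 0.51, adjusted p = 0.00946). NPNT, an extracellular matrix protein, was at 72.7, 421 and 285 CPM in the trio and 73.2, 74.7, 78.2, 78.6 and 86.3 CPM in the other five. Here AMB8 and AMB10 were high and AMB3 was below every library of the other side (log2 1.73 ± 0.40, adjusted p = 0.0248). The adjusted p of NPNT was 0.0514 to 0.109 without AMB8, AMB10, AMB4, AMB6, AMB7 or AMB9. IGSF21, a synaptic adhesion protein listed with this group, went the other way, with 84.8 to 119 CPM in the trio and 162 to 225 CPM in the other five. It held (log2 -0.95 ± 0.14, adjusted p = 0.00476), and the log2 difference was -1.14 without Y-linked RNA.

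Markers of the CA fields gave no common direction. Of 18 tested, 3 were higher and 2 lower, with a median of 0.26. FIBCD1, a membrane receptor used as a marker of CA1, lies on chromosome 13, 100583765 to 100624394, minus strand. It was at 84.00, 400.4 and 366 CPM in the trio and 76.8, 9.01, 15.99, 21.9 and 22.3 CPM in the other five. AMB8 and AMB10 were more than 4 times the highest of the other side, and AMB3 was just above AMB4 (log2 3.28 ± 0.68, adjusted p = 0.016). Its adjusted p was 0.0602 without AMB8 and 0.0656 without AMB10. RGS14, a signalling regulator known from CA2, stood at 55.3, 131 and 167 CPM in the trio and 42.4, 28.3, 17.1, 4.99 and 21.1 CPM in the other five. The trio was higher (log2 2.37 ± 0.55, adjusted p = 0.0252), with an adjusted p of 0.0581 to 0.113 without AMB8, AMB10, AMB6 or AMB9. WFS1, an endoplasmic reticulum protein of CA1 neurons, overlapped at 64.2 to 87.6 CPM in the trio and 54.4 to 82.8 CPM in the other five (log2 0.10 ± 0.15, adjusted p = 0.713).

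Both CA markers that were lower held. MPPED1, of the metallophosphoesterase family, was at 312, 225 and 261 CPM in the trio and 452, 513, 474, 577 and 519 CPM in the other five. Every trio library was below the other side (log2 -0.93 ± 0.13, adjusted p = 0.0029). CPNE9, a calcium-binding copine, was at 1.65, 1.72 and 2.17 CPM in the trio and 10.8, 14.2, 12.2, 12.03 and 6.04 CPM in the other five. It showed the same order (log2 -2.58 ± 0.28, adjusted p = 0.00153), with -2.83 without Y-linked RNA. The number of CA markers called was 9 without AMB3, 2 without AMB8 and 2 without AMB10.

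Transcription factors of the medial pallium, the embryonic field that becomes the hippocampus, were higher in 7 of 13 and lower in 1. NEUROG2 and EOMES, described below with genes of progenitors, were among the 7. The median of the list was 0.65, and the number called was 1 without AMB8 and 1 without AMB10. NFIA, which acts in gliogenesis and hippocampal patterning, was the 1 that held. It was at 63.3, 91.97 and 71.1 CPM in the trio and 40.2, 45.5, 50.1, 33.8 and 34.1 CPM in the other five. The sides did not overlap (log2 0.89 ± 0.16, adjusted p = 0.00985), and the adjusted p was 0.0541 with Y-linked RNA as a covariate. EMX2, required for growth of the medial cortex, was at 20.6, 34.4 and 26.5 CPM in the trio and 13.7, 15.8, 13.7, 8.74 and 9.41 CPM in the other five. It was higher without overlap (log2 1.15 ± 0.23, adjusted p = 0.0131), and its adjusted p was 0.0631 without AMB8 and 0.0536 without AMB10. ZBTB20, a specifier of hippocampal neurons, overlapped at 5.79 to 18.4 CPM in the trio and 1.84 to 6.08 CPM in the other five. It passed (log2 1.76 ± 0.45, adjusted p = 0.0372), with an adjusted p of 0.0522 to 0.165 without AMB8, AMB10, AMB5, AMB6, AMB7 or AMB9.

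Among genes of the layered neocortex, more were lower than higher in the trio. Of 19 tested layer markers, 9 were lower and 1 was higher, with a median of -0.52. The list summed to 909.9 to 1225 CPM in the trio and 1465 to 1986 CPM in the other five. RORB, a nuclear receptor of the granular layer, lies on chromosome 13, 22674659 to 22871449, minus strand. It was at 21.2, 17.4 and 21.9 CPM in the trio and 176, 98.3, 129, 268 and 166 CPM in the other five. The lowest of the other five was more than 4 times the highest of the trio (log2 -3.05 ± 0.31, adjusted p = 0.00118). Without Y-linked RNA the difference was -3.19. CUX2, an upper layer factor, was at 57.2, 12.1 and 16.2 CPM in the trio and 184, 139, 191, 277 and 194 CPM in the other five. AMB3 lay between the rest of the trio and the other side (log2 -2.80 ± 0.51, adjusted p = 0.00916).

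FOXP1, found in several layers, was at 61.97, 53.6 and 58.00 CPM in the trio and 142, 109.7, 127, 149 and 145 CPM in the other five. Levels within each side lay close together (log2 -1.22 ± 0.12, adjusted p = 0.000994), with -1.17 without Y-linked RNA. FOXP2, a deep layer factor, was at 13.1, 1.59 and 3.83 CPM in the trio and 43.99, 21.6, 38.9, 67.5 and 42.2 CPM in the other five. FOXP2 was lower in all 3 trio libraries (log2 -2.82 ± 0.64, adjusted p = 0.0235), and its adjusted p was 0.111 without AMB10. TBR1, a factor of early glutamatergic neurons that the medial pallium list also holds, was at 36.00, 16.3 and 15.96 CPM in the trio and 57.9, 59.6, 56.4, 56.05 and 41.6 CPM in the other five. It was lower in all 3 trio libraries (log2 -1.26 ± 0.27, adjusted p = 0.0189), with an adjusted p of 0.0754 without AMB8 and 0.0875 without AMB10. BCL11B, of deep layer neurons but also of dentate and CA neurons, was the 1 marker that was higher. It was at 66.4, 91.4 and 83.5 CPM in the trio and 41.1, 33.6, 32.1, 28.5 and 57.1 CPM in the other five. The sides did not overlap (log2 1.07 ± 0.21, adjusted p = 0.0139), and the adjusted p was 0.0613 without AMB8 and 0.0617 without AMB10. The number of layer markers called was 6 without AMB8 and 4 without AMB10, and RORB, CUX2 and FOXP1 were among the 4 that held.

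Most called dentate and medial pallium markers were thus higher in the trio, and most called layer markers lower. No label records the borders of the dissection, and the part of tissue makeup in the other differences was not tested. Dentate markers summed to 1008 to 1333 CPM in the trio and 641 to 867 CPM in the other five. CA markers summed to 1965 to 2193 CPM in the trio and 1616 to 1938 CPM in the other five. Neither sum overlapped between the sides. Markers of the striatum and amygdala gave 1 higher and 2 lower of 14. The 2 lower ones, RARB and TAC1, held. The list summed to 235 to 293 CPM in the trio and 309 to 412 CPM in the other five, without overlap. Markers of the subiculum and entorhinal cortex gave 1 lower of 11 (9.09%), near the 11.1% called over all tested genes.

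**Figure D3:**
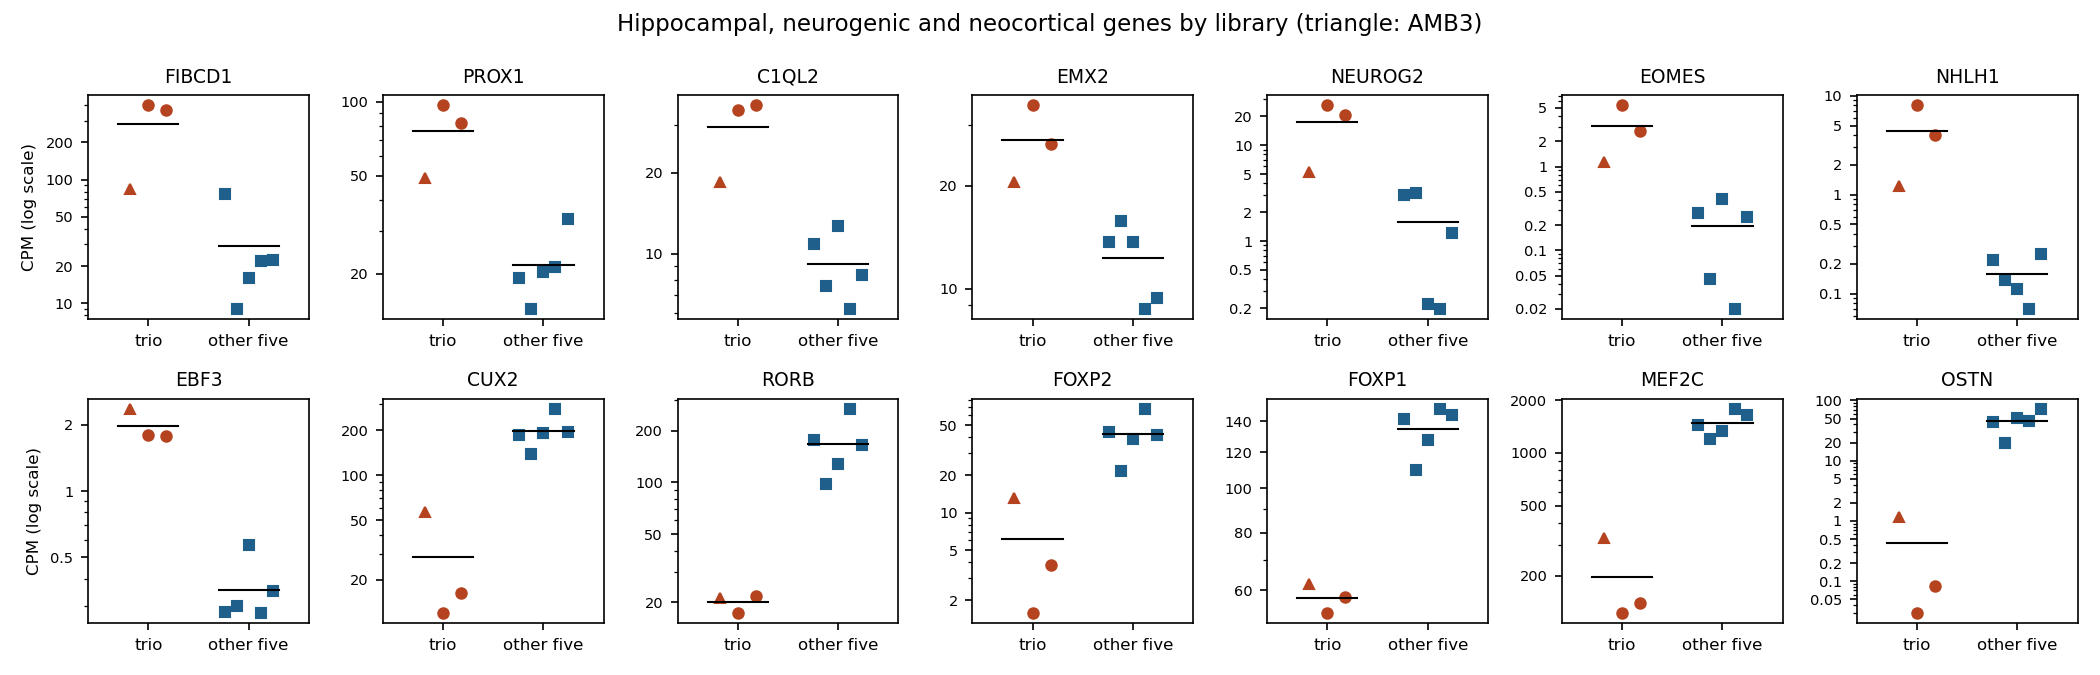
Level (CPM, log axis) of 14 genes in each library, with the trio in red (triangle: AMB3) and the other five in blue, and black bars for the mean of each side; EOMES in AMB7, at 0, is drawn at the axis floor of 0.02. PROX1, C1QL2 and NHLH1 lie higher in all 3 trio libraries, RORB, FOXP1, MEF2C and OSTN lie lower, and AMB3 lies between the sides for CUX2, FOXP2 and MEF2C.

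MEF2C, a transcription factor of excitatory neurons that responds to activity, lies on chromosome 5, 81709497 to 81893385, minus strand. It was at 326, 123 and 139.8 CPM in the trio and 1433, 1200.2, 1332, 1780.5 and 1637 CPM in the other five. The lowest of the other five was more than 3 times AMB3 and more than 8 times AMB8 and AMB10 (log2 -2.91 ± 0.33, adjusted p = 0.00174). Without Y-linked RNA the difference was -2.93 and did not pass (adjusted p = 0.0524). OSTN, osteocrin, a secreted peptide that primate neurons make on activity under MEF2 control, lies on chromosome 2, 187202229 to 187261988, plus strand. It was at 1.18, 0.0299 and 0.0838 CPM in the trio and 44.3, 19.8, 50.5, 45.1 and 72.2 CPM in the other five. AMB8 and AMB10 were close to 0 and AMB3 was low (log2 -7.01 ± 0.93, adjusted p = 0.00277). HDAC4, a deacetylase that binds MEF2 factors, was at 80.2, 64.2 and 72.7 CPM in the trio and 139, 108, 129.7, 169 and 123 CPM in the other five. It held too (log2 -0.89 ± 0.15, adjusted p = 0.0061). MEF2A was lower by less, with 149.9 to 171 CPM in the trio and 198 to 263 CPM in the other five. Its difference passed (log2 -0.43 ± 0.11, adjusted p = 0.0336), and the adjusted p was 0.0594 to 0.0984 without AMB3, AMB8, AMB10, AMB4 or AMB9. In this list of MEF2 factors and activity-dependent transcription, 6 of 13 tested members were lower and none higher. The count was 3 without AMB8, 3 without AMB10, 3 without AMB4 and 3 without AMB9.

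Immediate early genes, which neurons switch on soon after firing, were lower in 6 of 19 and higher in 1, with a median of -0.44. NR4A1, an orphan nuclear receptor, was at 23.2, 21.9 and 13.6 CPM in the trio and 52.00, 59.3, 49.5, 48.2 and 46.05 CPM in the other five. It was lower without overlap (log2 -1.39 ± 0.18, adjusted p = 0.00263) and alone held. EGR1, a zinc finger factor, was at 53.5 to 74.1 CPM in the trio and 75.4 to 139.9 CPM in the other five. It passed (log2 -0.73 ± 0.19, adjusted p = 0.0371), and its adjusted p was 0.0593 to 0.119 without AMB3, AMB8, AMB10, AMB4, AMB7 or AMB9. The gene that was higher was NR4A3, a relative of NR4A1, at 63.4 to 97.00 CPM in the trio and 25.4 to 54.8 CPM in the other five. Its difference (log2 0.85 ± 0.23, adjusted p = 0.0435) had an adjusted p of 0.0504 to 0.158 without AMB8, AMB10, AMB4, AMB5, AMB6 or AMB9. The count of this list was 1 without AMB8, 2 without AMB10, 3 without AMB4 and 4 without AMB9. BDNF, a neurotrophin induced by activity, overlapped at 56.5, 58.05 and 45.00 CPM in the trio and 32.7, 49.2, 37.8, 14.6 and 30.4 CPM in the other five. It did not pass (log2 0.69 ± 0.30, adjusted p = 0.172).

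Genes of progenitors and young neurons differed in both directions. NHLH1, a helix-loop-helix factor of newborn neurons, was at 1.23, 8.02 and 4.04 CPM in the trio and 0.219, 0.138, 0.111, 0.0700 and 0.251 CPM in the other five. No library of the other five exceeded 0.251 CPM (log2 4.82 ± 0.60, adjusted p = 0.00225). Its relative NHLH2 was at 2.91, 6.23 and 6.11 CPM in the trio and 1.36, 0.875, 1.96, 1.44 and 1.26 CPM in the other five. It held as well (log2 1.88 ± 0.31, adjusted p = 0.00658). NEUROG2, a proneural factor of pallial progenitors, was at 5.25, 26.1 and 20.7 CPM in the trio and 3.05, 3.18, 0.221, 0.196 and 1.21 CPM in the other five. NEUROG2 was higher in the trio without overlap (log2 3.47 ± 0.86, adjusted p = 0.0323), and its adjusted p was 0.0727 to 0.109 without AMB8, AMB10 or AMB9. EOMES, of intermediate progenitors, was at 1.13, 5.39 and 2.64 CPM in the trio and 0.281, 0.0461, 0.406, 0 and 0.251 CPM in the other five. Like NEUROG2, it was lowest in AMB3 among the trio but did not overlap (log2 3.95 ± 0.86, adjusted p = 0.019). Its adjusted p was 0.08 without AMB8 and 0.0596 without AMB10.

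DPYSL5, a collapsin response mediator of growth cones, was at 474 to 744 CPM in the trio and 856 to 1169.8 CPM in the other five. For DPYSL5, the trio lay wholly below the other five (log2 -0.78 ± 0.16, adjusted p = 0.0153), with an adjusted p of 0.0729 without AMB8 and 0.0759 without AMB10. DCX, the doublecortin of migrating neurons, was at 271 to 300.1 CPM in the trio and 324 to 656 CPM in the other five and did not pass (log2 -0.65 ± 0.20, adjusted p = 0.0737). Over the immature neuron list, 3 were higher and 3 lower of 15, and the count was 3 without AMB8 and 3 without AMB10. None of 14 markers of dividing cells was called by edgeR or DESeq2, and 0 had an unadjusted p below 0.05. Of 15 radial glia markers, edgeR called 1 (6.67%) and DESeq2 called 4, with a median of 0.38. In the edgeR test, 7 had an unadjusted p below 0.05, as did 4607 of all 16846 tested genes. The list summed to 1669 to 1897 CPM in the trio and 1051 to 1576 CPM in the other five. The gene called by edgeR was GLI3, of the hedgehog pathway. It was at 16.9 to 28.2 CPM in the trio and 8.82 to 15.2 CPM in the other five. GLI3 did not overlap and was higher in the trio (log2 0.87 ± 0.23, adjusted p = 0.0379), with an adjusted p of 0.0532 to 0.195 without AMB8, AMB10, AMB4, AMB5, AMB7 or AMB9.

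Cajal-Retzius markers were higher in 5 of 6 tested, with a median of 1.10. They summed to 472 to 607 CPM in the trio and 339.7 to 376 CPM in the other five. Most of each sum came from RELN, CALB2 and NDNF, which interneurons also express. EBF3, a transcription factor of these cells, was at 2.37, 1.80 and 1.77 CPM in the trio and 0.281, 0.299, 0.572, 0.280 and 0.352 CPM in the other five. The lowest trio library was more than 3 times the highest of the other five (log2 2.46 ± 0.31, adjusted p = 0.0024), with 2.76 without Y-linked RNA. NDNF, a secreted protein also made by superficial interneurons, was at 53.1, 36.7 and 49.5 CPM in the trio and 22.1, 19.6, 24.1, 24.7 and 22.5 CPM in the other five. It did not overlap (log2 1.04 ± 0.13, adjusted p = 0.00258). CALB2, calretinin, which interneurons share, was at 197, 233 and 143 CPM in the trio and 75.8, 111, 90.99, 73.1 and 77.5 CPM in the other five. It was likewise higher (log2 1.16 ± 0.18, adjusted p = 0.0048). RELN, the secreted glycoprotein that defines these cells and that interneurons also make, overlapped at 343, 184 and 288 CPM in the trio and 235, 237, 227, 239.7 and 265 CPM in the other five. It did not pass (log2 0.18 ± 0.17, adjusted p = 0.55). EBF3, NDNF and CALB2 held, and the count of the list was 3 without AMB8 and 3 without AMB10.

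Among interneuron genes, 2 were higher and 5 lower of 22, with a median of -0.43. The 2 higher ones were PROX1 and CALB2, which the granule cell and Cajal-Retzius lists also hold. DLX1, a factor of cells from the ganglionic eminences, was at 37.4, 24.8 and 33.4 CPM in the trio and 53.4, 61.6, 56.03, 58.8 and 69.4 CPM in the other five. It was lower in every trio library (log2 -0.91 ± 0.15, adjusted p = 0.00562). TAC3, the precursor of neurokinin B, was at 4.29, 2.41 and 4.82 CPM in the trio and 9.85, 13.2, 13.96, 10.4 and 10.8 CPM in the other five. TAC3 was lower in all 3 trio libraries (log2 -1.60 ± 0.24, adjusted p = 0.0048), and both held. GAD1, an enzyme of GABA synthesis, overlapped at 129 to 307 CPM in the trio and 245 to 311 CPM in the other five and did not pass (log2 -0.47 ± 0.23, adjusted p = 0.229). SST, somatostatin, was at 59.1 to 149 CPM in the trio and 109 to 232 CPM in the other five and did not pass either (log2 -0.81 ± 0.32, adjusted p = 0.133).

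Of 11 excitatory neuron genes, 1 was higher and 4 were lower, TBR1 among them, with a median of -0.01. The higher one was BHLHE22, a factor of projection neurons, at 174, 259.5 and 219 CPM in the trio and 72.9, 106, 95.6, 107 and 118 CPM in the other five. The sides did not overlap (log2 1.12 ± 0.16, adjusted p = 0.00424). ARPP21, a phosphoprotein of cortical and striatal neurons, was at 329, 248 and 240.4 CPM in the trio and 496, 528, 419, 549 and 454 CPM in the other five. It was lower in every trio library (log2 -0.85 ± 0.14, adjusted p = 0.00558), and both held.

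Among glial lists, astrocyte markers were higher in 7 of 16 and lower in none, with a median of 0.47. No member held, and the count was 2 without AMB8, 0 without AMB10, 4 without AMB4, 3 without AMB5, 2 without AMB7 and 2 without AMB9. AQP4, the water channel of astrocyte endfeet, was at 712, 566 and 866 CPM in the trio and 450.5, 369, 524, 368 and 483 CPM in the other five. The sides did not overlap (log2 0.70 ± 0.16, adjusted p = 0.0237), and its adjusted p was 0.125 without AMB10 and 0.0527 without AMB7. ALDH1L1, a folate enzyme, was at 21.6 to 23.8 CPM in the trio and 10.6 to 15.7 CPM in the other five. ALDH1L1 was higher in the trio without overlap (log2 0.79 ± 0.14, adjusted p = 0.00914), with an adjusted p of 0.0525 without AMB10. GFAP, the intermediate filament, overlapped at 915, 1005 and 1612 CPM in the trio and 1022, 646, 1194, 552 and 706 CPM in the other five. It did not pass (log2 0.51 ± 0.27, adjusted p = 0.259).

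Ependymal and ciliary genes were higher in 5 of 12, and the count was 2 without AMB10. CFAP54, of the central apparatus of motile cilia, was at 2.07, 2.80 and 5.70 CPM in the trio and 1.08, 0.645, 0.996, 0.532 and 0.880 CPM in the other five. It alone held (log2 2.09 ± 0.37, adjusted p = 0.00808). HYDIN, of the same structure, was at 2.61, 3.94 and 9.72 CPM in the trio and 1.92, 0.622, 1.11, 0.420 and 0.654 CPM in the other five. AMB10 was the highest (log2 2.51 ± 0.54, adjusted p = 0.0182), and the adjusted p was 0.11 without AMB10. DNAH9, an axonemal dynein, was at 17.7 to 29.2 CPM in the trio and 8.59 to 13.1 CPM in the other five. For DNAH9, the trio lay wholly above the other five (log2 1.07 ± 0.19, adjusted p = 0.00916), with an adjusted p of 0.0554 without AMB10.

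No member was called by edgeR among 15 myelin genes, 15 microglial genes, 13 pericyte and smooth muscle genes, 12 meningeal genes, 6 choroid plexus genes, 3 red blood cell genes or 4 leukocyte genes. At an unadjusted p below 0.05, 1 microglial and 1 leukocyte gene and 0 of the others passed, and DESeq2 called 0 in these lists. The summed levels of all 7 lists overlapped between sides. Microglial genes, for example, summed to 130.0 to 209 CPM in the trio and 159.6 to 236 CPM in the other five. MBP, myelin basic protein, was at 269, 1097 and 1697 CPM in the trio and 1579, 285, 775, 510.3 and 478 CPM in the other five. Both sides spanned a wide range (log2 0.49 ± 0.61, adjusted p = 0.649). COL1A2, a collagen of the meninges, was at 106, 23.4 and 58.3 CPM in the trio and 135, 21.3, 26.1, 152 and 72.7 CPM in the other five. It too overlapped (log2 -0.38 ± 0.69, adjusted p = 0.767).

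**Figure D4:**
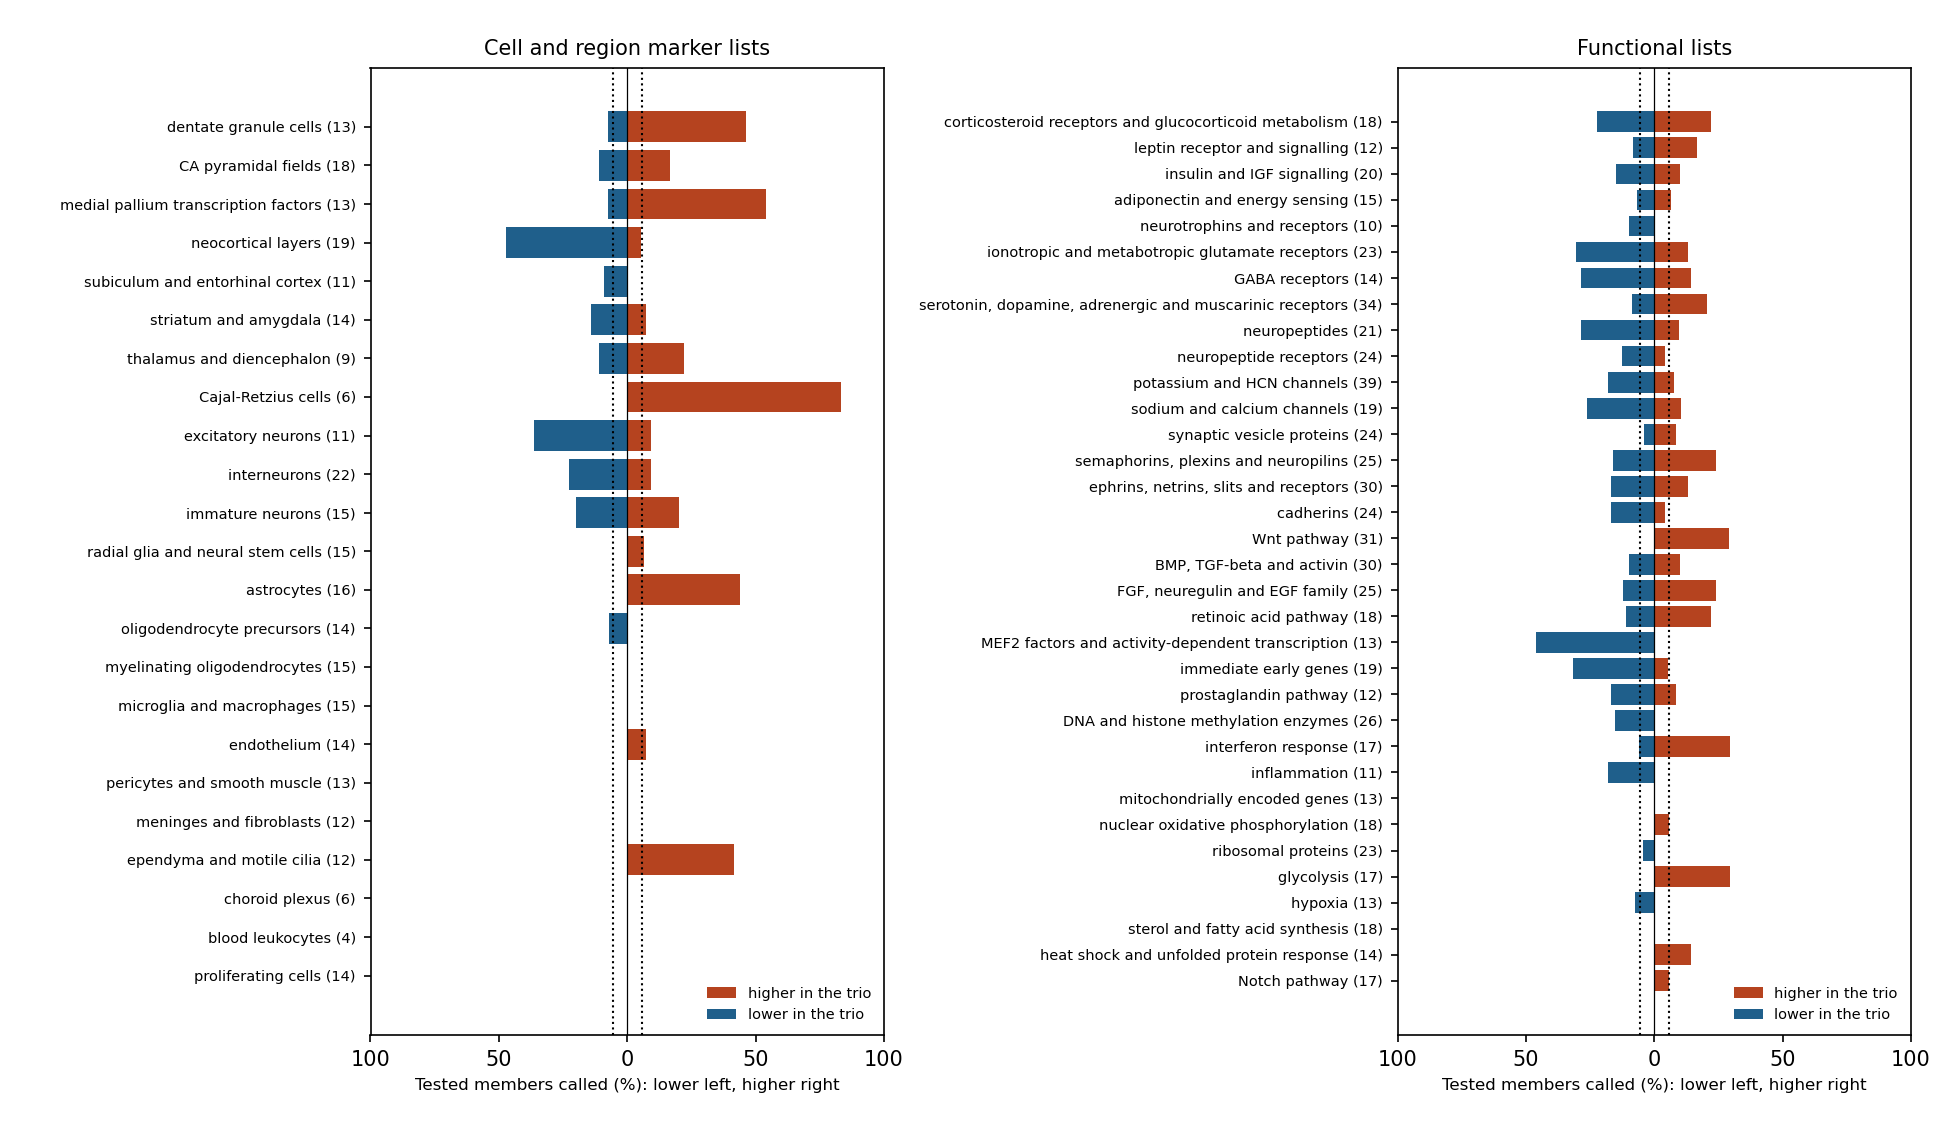
Percent of tested members called higher (red, right) or lower (blue, left) in the trio for each list with at least 4 tested members (number in brackets); dotted lines mark the percentages over all tested genes, 5.59% higher and 5.56% lower. Cajal-Retzius, medial pallium and dentate lists extend to the right, neocortical layers and MEF2 factors to the left, and the myelin, microglial, pericyte and meningeal lists have no bar.

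Corticosteroid genes changed in both directions, 4 higher and 4 lower of 18 tested. NR3C2, the mineralocorticoid receptor, which the hippocampus expresses strongly, lies on chromosome 3, 40888680 to 41252367, plus strand. It was at 65.2, 118 and 121 CPM in the trio and 35.7, 13.6, 15.8, 16.8 and 24.3 CPM in the other five. The sides did not overlap (log2 2.26 ± 0.32, adjusted p = 0.0035), a 4.79-fold difference, with 2.74 without Y-linked RNA. NR3C1, the glucocorticoid receptor, overlapped at 26.5, 27.4 and 33.4 CPM in the trio and 42.6, 30.8, 28.2, 37.7 and 33.7 CPM in the other five. It did not pass (log2 -0.25 ± 0.15, adjusted p = 0.318). FKBP5, a cochaperone of both receptors that glucocorticoids induce, lies on chromosome 6, 33890906 to 34007497, minus strand. It was at 13.5, 19.3 and 18.2 CPM in the trio and 5.69, 5.07, 5.24, 6.05 and 5.31 CPM in the other five. The spread within each side was narrow (log2 1.64 ± 0.14, adjusted p = 0.000732), with 1.61 without Y-linked RNA.

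CRHR1, the receptor of corticotropin-releasing hormone, was at 17.9, 9.53 and 7.24 CPM in the trio and 39.99, 46.9, 39.2, 41.03 and 36.2 CPM in the other five. Every library of the other five was more than 2 times the highest of the trio (log2 -1.82 ± 0.27, adjusted p = 0.00421). The hormone itself, CRH, was at 17.9, 4.71 and 8.49 CPM in the trio and 22.4, 25.7, 34.7, 25.2 and 32.4 CPM in the other five. CRH did not overlap and was lower in the trio (log2 -1.44 ± 0.37, adjusted p = 0.0371), and its adjusted p was 0.0513 to 0.156 without AMB8, AMB10, AMB4, AMB5, AMB6, AMB7 or AMB9. HSD11B1, which regenerates active glucocorticoid, was at 2.76 to 7.51 CPM in the trio and 0.434 to 2.26 CPM in the other five. HSD11B1 was higher in all 3 trio libraries (log2 1.89 ± 0.50, adjusted p = 0.0399), with an adjusted p of 0.0603 to 0.157 without AMB8, AMB10, AMB4, AMB6 or AMB9. HSD11B2, which inactivates the hormone, was at 0.209 to 0.475 CPM in the trio and 0.996 to 1.82 CPM in the other five. HSD11B2 was lower in the trio without overlap (log2 -1.75 ± 0.37, adjusted p = 0.0175), with an adjusted p of 0.063 without AMB8 and 0.0508 without AMB10. FKBP5, NR3C2 and CRHR1 held, and the list count was 3 without AMB8, 3 without AMB10, 5 without AMB4, 4 without AMB6 and 5 without AMB9.

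LEPR, the leptin receptor, lies on chromosome 1, 63973519 to 64038117, plus strand. It was at 1.40, 4.56 and 3.98 CPM in the trio and 0.266, 0.299, 0.627, 0.0840 and 0.126 CPM in the other five. Levels were low everywhere, and the lowest trio library exceeded the highest of the other five (log2 3.56 ± 0.60, adjusted p = 0.00666). Without Y-linked RNA the difference was 4.17 and did not pass (adjusted p = 0.0657). PTPN1, a phosphatase that dampens leptin and insulin receptors, was at 48.8, 49.7 and 44.4 CPM in the trio and 65.6, 75.7, 68.04, 76.8 and 73.6 CPM in the other five. It was lower in all 3 trio libraries and held (log2 -0.60 ± 0.09, adjusted p = 0.00473). IRS2, an adaptor of both receptors, was at 84.6 to 108 CPM in the trio and 61.1 to 73.6 CPM in the other five. For IRS2, the trio lay wholly above the other five (log2 0.55 ± 0.10, adjusted p = 0.00985), with an adjusted p of 0.0598 without AMB10. Over the leptin list, 2 were higher and 1 lower of 12 tested. LEP, leptin itself, did not pass the level filter. It had 2 counts in AMB6 and none in the other libraries, which allows up to 0.0419 CPM (AMB10) to 0.0755 CPM (AMB9) there (3 counts, counting error only).

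In insulin and IGF signalling, 2 genes were higher and 3 lower of 20, and the count was 3 without AMB10. IGF1, insulin-like growth factor, was at 47.3, 30.5 and 44.1 CPM in the trio and 65.8, 69.8, 63.1, 77.3 and 81.7 CPM in the other five. IGF1 did not overlap and was lower in the trio (log2 -0.82 ± 0.15, adjusted p = 0.0111). PIK3R1, the regulatory subunit of phosphoinositide kinase, was at 247, 193 and 209 CPM in the trio and 378, 328, 336, 442 and 433 CPM in the other five. PIK3R1 was lower in all 3 trio libraries (log2 -0.82 ± 0.13, adjusted p = 0.00596). FOXO1, the transcription factor that insulin restrains, was at 44.4, 31.9 and 32.02 CPM in the trio and 17.6, 10.8, 14.7, 14.98 and 16.3 CPM in the other five. FOXO1 was higher in the trio without overlap (log2 1.28 ± 0.17, adjusted p = 0.00287), and none of these 3 overlapped. In adiponectin and energy sensing, 1 gene was higher and 1 lower of 15 tested, which is 13.3% against 11.1% over all tested genes. CDH13, T-cadherin, which binds adiponectin, was at 122, 56.2 and 79.2 CPM in the trio and 238, 339.5, 185, 277 and 229 CPM in the other five. For CDH13, the trio lay wholly below the other five (log2 -1.57 ± 0.27, adjusted p = 0.00687). PRKAG2, a regulatory subunit of AMP-activated kinase, was at 126, 122 and 139 CPM in the trio and 73.4, 81.7, 66.2, 58.3 and 85.5 CPM in the other five. PRKAG2 did not overlap and was higher in the trio (log2 0.82 ± 0.13, adjusted p = 0.00486). These 5 genes held.

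In the list of serotonin, dopamine, adrenergic and muscarinic receptors, 7 were higher and 3 lower of 34. The count was 5 without AMB8 and 6 without AMB10. HTR1A, an inhibitory serotonin receptor of pyramidal and granule cells, was at 48.4, 74.4 and 80.6 CPM in the trio and 19.3, 16.4, 6.03, 5.56 and 8.98 CPM in the other five. HTR1A was higher in all 3 trio libraries (log2 2.59 ± 0.40, adjusted p = 0.00516). HTR4, which raises cyclic AMP, was at 8.30, 9.04 and 9.22 CPM in the trio and 4.46, 1.98, 1.68, 2.63 and 1.96 CPM in the other five. The trio was higher here too (log2 1.79 ± 0.30, adjusted p = 0.00641). HTR3A, an ion channel of interneurons, was at 6.58, 5.36 and 6.37 CPM in the trio and 1.69, 2.004, 2.40, 1.25 and 1.76 CPM in the other five, again higher (log2 1.75 ± 0.22, adjusted p = 0.00258). HTR2C was at 11.8 to 16.6 CPM in the trio and 4.53 to 7.46 CPM in the other five (log2 1.24 ± 0.19, adjusted p = 0.00437). HTR1D, another inhibitory receptor, was at 1.63, 0.509 and 0.433 CPM in the trio and 6.04, 4.93, 3.87, 7.83 and 6.31 CPM in the other five. It went the other way (log2 -2.79 ± 0.47, adjusted p = 0.00681). These 5 serotonin receptors did not overlap between sides and held. ADRA1D, an adrenergic receptor, was at 11.9, 51.9 and 48.97 CPM in the trio and 13.1, 5.25, 4.68, 3.95 and 9.71 CPM in the other five. AMB3 was below AMB4 (log2 2.36 ± 0.50, adjusted p = 0.018), and the adjusted p was 0.0736 without AMB8 and 0.0816 without AMB10.

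Neuropeptides and their receptors also split. CARTPT, a neuropeptide precursor, lies on chromosome 5, 64702011 to 64703865, plus strand. It was at 119, 97.97 and 74.1 CPM in the trio and 12.2, 11.7, 14.8, 7.66 and 11.4 CPM in the other five. The lowest trio library was about 5 times the highest of the other five (log2 3.07 ± 0.21, adjusted p = 0.000216). The difference was 8.41-fold, with a log2 value of 3.33 without Y-linked RNA. NPY2R, a presynaptic receptor of neuropeptide Y, was at 5.17, 10.1 and 13.1 CPM in the trio and 0.954, 1.08, 0.793, 0.924 and 1.38 CPM in the other five. NPY2R was higher in the trio without overlap (log2 3.21 ± 0.30, adjusted p = 0.00093), with 3.23 without Y-linked RNA. TAC1, the precursor of substance P, was at 36.9, 25.7 and 39.7 CPM in the trio and 70.3, 90.03, 72.5, 92.3 and 98.7 CPM in the other five. For TAC1, the trio lay wholly below the other five (log2 -1.31 ± 0.17, adjusted p = 0.00278), and all 3 genes held. In the neuropeptide list 2 were higher and 6 lower of 21, and the count was 5 without AMB8, 5 without AMB4, 5 without AMB6 and 5 without AMB9. The list of neuropeptide receptors had 1 higher and 3 lower of 24, which is 16.7% against 11.1% over all tested genes.

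Among glutamate receptors, 3 were higher and 7 lower of 23. The count was 4 without AMB8, 4 without AMB10 and 6 without AMB7. Subunits of the AMPA receptor differed in direction. GRIA1 was at 760.0, 1106 and 1042 CPM in the trio and 575, 543, 446, 438 and 561 CPM in the other five. It was higher in all 3 trio libraries (log2 0.92 ± 0.14, adjusted p = 0.00519). GRIA4 was at 50.5, 30.5 and 41.8 CPM in the trio and 125, 87.9, 116, 132 and 114 CPM in the other five. It was lower in all 3 (log2 -1.49 ± 0.18, adjusted p = 0.00218). GRM3, a metabotropic receptor of glia and neurons, was at 178, 145 and 175 CPM in the trio and 261, 264, 258, 252 and 267 CPM in the other five. It was lower with little spread (log2 -0.65 ± 0.09, adjusted p = 0.00295). CACNG2, an auxiliary subunit of AMPA receptors, was at 39.2 to 46.2 CPM in the trio and 63.5 to 84.02 CPM in the other five. CACNG2 did not overlap and was lower in the trio (log2 -0.69 ± 0.11, adjusted p = 0.00642), and all 4 held.

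GABA receptor genes had 2 higher and 4 lower of 14, none of which held, and the count was 3 without AMB3, 3 without AMB8, 0 without AMB10, 3 without AMB4, 3 without AMB7 and 2 without AMB9. GABRA4, a subunit of extrasynaptic receptors, was at 28.9, 8.59 and 14.6 CPM in the trio and 68.2, 51.1, 56.3, 68.02 and 63.6 CPM in the other five. GABRA4 was lower in all 3 trio libraries (log2 -1.83 ± 0.33, adjusted p = 0.00972), and its adjusted p was 0.0568 without AMB10. Potassium and HCN channel genes had 3 higher and 7 lower of 39, and the count was 6 without AMB8 and 5 without AMB10. KCNG3, a modifier subunit of voltage-gated channels, was at 6.51, 6.96 and 7.78 CPM in the trio and 1.61, 1.80, 1.24, 1.25 and 1.43 CPM in the other five. Both sides were tight (log2 2.27 ± 0.19, adjusted p = 0.000603), with 2.22 without Y-linked RNA. KCNA1, an axonal channel, was higher at 83.5 to 137 CPM in the trio and 44.1 to 64.5 CPM in the other five (log2 1.09 ± 0.17, adjusted p = 0.00552). KCNV1, another modifier subunit, was lower at 46.4 to 66.1 CPM in the trio and 103 to 143 CPM in the other five (log2 -1.18 ± 0.15, adjusted p = 0.00264). KCNQ3, of the M current, was lower at 37.8 to 53.5 CPM in the trio and 69.3 to 105 CPM in the other five (log2 -1.01 ± 0.16, adjusted p = 0.00526). These 4 held.

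Several receptors of axon guidance cues passed the test. NRP2, a semaphorin receptor of hippocampal axons, lies on chromosome 10, 89597187 to 89712352, plus strand. It was at 159, 146 and 135 CPM in the trio and 48.5, 43.1, 50.4, 51.5 and 54.05 CPM in the other five. Values within each side lay close together (log2 1.57 ± 0.09, adjusted p = 0.000188). The difference was 2.96-fold, with a log2 value of 1.62 without Y-linked RNA. NRP1, a related receptor, was at 63.2, 100.4 and 93.1 CPM in the trio and 20.6, 14.7, 18.5, 8.88 and 18.4 CPM in the other five. NRP1 was higher in the trio without overlap (log2 2.40 ± 0.25, adjusted p = 0.00129), with 2.86 without Y-linked RNA. SEMA3E, a secreted semaphorin, was at 101, 161 and 159 CPM in the trio and 52.3, 15.2, 34.95, 50.2 and 42.00 CPM in the other five. For SEMA3E, the trio lay wholly above the other five (log2 1.85 ± 0.33, adjusted p = 0.00914). PLXND1, the receptor of SEMA3E, was at 75.5, 53.1 and 61.8 CPM in the trio and 145, 123, 112, 193 and 132 CPM in the other five. PLXND1 did not overlap and was lower in the trio (log2 -1.15 ± 0.19, adjusted p = 0.00614). PLXNA1, a coreceptor of neuropilins, was lower at 177 to 234 CPM in the trio and 312 to 391 CPM in the other five (log2 -0.66 ± 0.12, adjusted p = 0.00909). These 5 held. The list had 6 higher and 4 lower of 25, and the count was 6 without AMB8 and 6 without AMB10.

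Of ephrins, netrins, slits and their receptors, 4 were higher and 5 lower of 30, and the count was 18 without AMB3, 5 without AMB8 and 4 without AMB10. EPHB6, an ephrin receptor without kinase activity, was at 47.3, 48.7 and 56.6 CPM in the trio and 109, 155, 148, 136 and 107 CPM in the other five. EPHB6 was lower in all 3 trio libraries (log2 -1.36 ± 0.15, adjusted p = 0.00148), with -1.52 without Y-linked RNA. ROBO2, a receptor of slits, was lower at 123 to 164 CPM in the trio and 216 to 325 CPM in the other five (log2 -0.92 ± 0.16, adjusted p = 0.00726). The ligand SLIT3 was at 246, 233 and 256 CPM in the trio and 117, 155, 87.1, 93.3 and 112 CPM in the other five. SLIT3 was higher in the trio without overlap (log2 1.12 ± 0.17, adjusted p = 0.00435). UNC5A, a netrin receptor, was higher at 144 to 193 CPM in the trio and 91.6 to 120.2 CPM in the other five (log2 0.79 ± 0.12, adjusted p = 0.00501). These 4 genes held.

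Wnt pathway genes were higher in 9 of 31 and lower in none, with a median of 0.23. They summed to 1067 to 1243 CPM in the trio and 693 to 819 CPM in the other five, and the count was 5 without AMB8 and 5 without AMB10. FZD7, a Wnt receptor, lies on chromosome 10, 85852463 to 85856388, plus strand. It was at 81.02, 94.2 and 83.6 CPM in the trio and 16.95, 12.8, 21.9, 6.74 and 15.4 CPM in the other five. The lowest trio library was more than 3 times the highest of the other five (log2 2.55 ± 0.29, adjusted p = 0.00174), with 3.14 without Y-linked RNA. RSPO3, a secreted amplifier of Wnt signals, was at 59.4, 53.7 and 48.5 CPM in the trio and 10.9, 12.4, 4.54, 3.88 and 9.33 CPM in the other five. For RSPO3, the trio lay wholly above the other five (log2 2.72 ± 0.35, adjusted p = 0.00264). The ligand WNT4 was at 49.1, 86.3 and 73.6 CPM in the trio and 24.1, 26.7, 20.4, 12.2 and 19.7 CPM in the other five. It did not overlap (log2 1.76 ± 0.25, adjusted p = 0.00333). WNT2, another ligand, was at 5.52, 19.8 and 22.7 CPM in the trio and 3.33, 1.22, 0.978, 2.10 and 2.72 CPM in the other five. AMB3 was the lowest of the trio but above the other side (log2 2.95 ± 0.49, adjusted p = 0.00641). These 4 genes held.

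Genes of the BMP and TGF-beta family split into 3 higher and 3 lower of 30, and the count was 10 without AMB3, 3 without AMB8 and 3 without AMB10. The ligand BMP5 was at 0.394, 0.0898 and 0.182 CPM in the trio and 2.24, 5.25, 1.90, 3.33 and 3.42 CPM in the other five. BMP5 did not overlap and was lower in the trio (log2 -3.91 ± 0.55, adjusted p = 0.00338), with -4.32 without Y-linked RNA. GDF10, a BMP-like ligand, was at 5.40, 3.58 and 3.56 CPM in the trio and 12.9, 27.00, 18.8, 20.3 and 16.4 CPM in the other five. It was lower in every trio library as well (log2 -2.20 ± 0.26, adjusted p = 0.00203), and both held. In the FGF and EGF families 6 were higher and 3 lower of 25, and the count was 4 without AMB8, 3 without AMB10 and 5 without AMB9. FGF13, an intracellular FGF that binds sodium channels, was higher at 275 to 295 CPM in the trio and 112 to 166 CPM in the other five (log2 1.05 ± 0.12, adjusted p = 0.00178). TGFA, a ligand of the EGF receptor, was higher at 41.2 to 64.2 CPM in the trio and 10.2 to 21.95 CPM in the other five (log2 1.56 ± 0.23, adjusted p = 0.00431). NRG1, a ligand of ERBB receptors, was lower at 24.3 to 27.6 CPM in the trio and 40.04 to 66.7 CPM in the other five (log2 -0.94 ± 0.16, adjusted p = 0.00726). These 3 held.

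RARB, a retinoic acid receptor that retinoic acid itself induces, was at 4.90, 1.95 and 4.29 CPM in the trio and 44.6, 20.02, 38.01, 80.4 and 43.1 CPM in the other five. It was below the other side in all 3 trio libraries (log2 -3.62 ± 0.49, adjusted p = 0.00287). Of 18 retinoic acid genes, 4 were higher and 2 lower, and the count was 2 without AMB8 and 3 without AMB10. PTGS2, the inducible cyclooxygenase of excitatory cortical neurons, was at 0.690, 0.269 and 0.279 CPM in the trio and 5.86, 7.69, 5.40, 10.8 and 5.73 CPM in the other five. The lowest of the other five was more than 7 times the highest trio library (log2 -4.15 ± 0.42, adjusted p = 0.00118), with -4.53 without Y-linked RNA. RARB and PTGS2 held.

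Among enzymes of DNA and histone methylation and deacetylation, none was higher and 4 of 26 were lower, HDAC4 among them. This is 15.4% called, against 11.1% over all tested genes. The count was 2 without AMB8, 2 without AMB10, 2 without AMB4, 7 without AMB5, 2 without AMB7 and 2 without AMB9. TET3, which oxidizes methylated cytosine, was at 88.2, 92.1 and 89.03 CPM in the trio and 199.9, 157, 176, 241 and 188 CPM in the other five. It was lower and held (log2 -1.10 ± 0.13, adjusted p = 0.00211). DNMT3A, a DNA methyltransferase, overlapped at 69.9 to 87.9 CPM in the trio and 78.4 to 92.5 CPM in the other five and did not pass (log2 -0.14 ± 0.10, adjusted p = 0.391).

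Interferon response genes were higher in 5 and lower in 1 of 17, and 1 of the higher genes held. The list summed to 326 to 388 CPM in the trio and 218 to 277 CPM in the other five. Its count was 1 without AMB8, 1 without AMB10, 3 without AMB4, 2 without AMB7 and 3 without AMB9. NOD2, an intracellular sensor of bacterial cell walls, was at 0.986, 0.643 and 0.377 CPM in the trio and 8.21, 1.15, 6.99, 24.5 and 18.6 CPM in the other five. NOD2 was lower in all 3 trio libraries (log2 -4.18 ± 0.91, adjusted p = 0.0194), with AMB5 close to the trio, and its adjusted p was 0.0784 without AMB8 and 0.0973 without AMB10. NDRG1, which hypoxia induces and oligodendrocytes also express, was at 89.99, 48.8 and 49.9 CPM in the trio and 156, 151, 188, 222 and 185 CPM in the other five. It was lower and held (log2 -1.52 ± 0.23, adjusted p = 0.00431), the 1 call among 13 hypoxia genes (7.69%). Mitochondrially encoded genes and sterol and fatty acid synthesis genes had no call by edgeR among 13 and 18 tested. At an unadjusted p below 0.05 these lists had 0 and 4 genes, and DESeq2 called 0 and 1.

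Among called genes with a symbol, a mean of at least 5 CPM and no overlap, the largest differences outside the Y-linked genes were in MEPE, DSG3 and OSTN. MEPE, a matrix phosphoglycoprotein best known from bone, lies on chromosome 3, 131842601 to 131856801, plus strand. It was at 0.0493, 0.0599 and 0.0838 CPM in the trio and 7.40, 13.04, 9.04, 8.53 and 15.1 CPM in the other five. DSG3, a desmosomal cadherin best known from skin, lies on chromosome 19, 23459074 to 23491121, plus strand. It was at 0.246, 0.0898 and 0.0559 CPM in the trio and 16.1, 9.79, 15.7, 22.3 and 12.7 CPM in the other five. Both were below 0.3 CPM in all 3 trio libraries and above 7 CPM in all of the other five. MEPE differed by -7.27 ± 0.40 (log2, SE, adjusted p = 0.000156), and by -7.31 without Y-linked RNA. DSG3 differed by -7.01 ± 0.49 (adjusted p = 0.000228), and by -7.06 without Y-linked RNA.

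MCHR2, a receptor of melanin-concentrating hormone that rodents lack, was at 1.21, 0.808 and 1.62 CPM in the trio and 12.5, 22.1, 10.5, 10.4 and 8.43 CPM in the other five. For MCHR2, the trio lay wholly below the other five (log2 -3.39 ± 0.39, adjusted p = 0.00174). BARX2, a homeobox factor, was at 1.53, 0.120 and 0.419 CPM in the trio and 7.80, 7.81, 11.7, 13.2 and 7.32 CPM in the other five. In this gene AMB3 was the highest of the trio and still below the other side (log2 -3.87 ± 0.67, adjusted p = 0.00773). MEPE, DSG3, MCHR2 and BARX2 held. The Y-linked genes USP9Y (log2 -10.46 ± 2.74, adjusted p = 0.0391) and KDM5D (log2 -10.79 ± 2.88, adjusted p = 0.0416) differed by more. They follow the 3 libraries with Y-linked RNA. The adjusted p of USP9Y was 0.0615 to 0.154 without AMB3, AMB8, AMB10, AMB4, AMB6 or AMB9, and that of KDM5D was 0.0653 to 0.165 without AMB3, AMB8, AMB10, AMB4, AMB6 or AMB9.

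Among genes that were higher, TSPAN18, a tetraspanin, lies on chromosome 12, 104624465 to 104827872, minus strand. It was at 101, 276 and 189 CPM in the trio and 12.01, 9.12, 12.6, 5.38 and 9.61 CPM in the other five. The lowest trio library was about 8 times the highest of the other five (log2 4.28 ± 0.34, adjusted p = 0.000486). The difference was 19.4-fold, with a log2 value of 4.70 without Y-linked RNA. ST18, a zinc finger factor, was at 45.3, 35.96 and 34.2 CPM in the trio and 5.71, 2.17, 3.23, 4.12 and 4.70 CPM in the other five. ST18 did not overlap and was higher in the trio (log2 3.27 ± 0.27, adjusted p = 0.000538). COL25A1, a membrane collagen of neurons, was at 77.5, 88.6 and 107 CPM in the trio and 6.44, 13.96, 14.3, 9.12 and 20.2 CPM in the other five. It was higher by a similar step (log2 2.83 ± 0.31, adjusted p = 0.00148). RTP5, of the receptor transporter family, was at 85.3, 72.1 and 68.8 CPM in the trio and 7.15, 16.3, 12.7, 5.46 and 12.4 CPM in the other five (log2 2.81 ± 0.31, adjusted p = 0.00148). DNAJC12, a cochaperone, was at 25.3, 18.05 and 14.5 CPM in the trio and 2.31, 2.53, 2.82, 1.05 and 4.15 CPM in the other five (log2 2.91 ± 0.36, adjusted p = 0.00217). These 5 held.

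VGLL3, a transcriptional cofactor, was at 37.1, 5.42 and 7.07 CPM in the trio and 1.81, 0.507, 1.01, 2.62 and 1.16 CPM in the other five. AMB3 was the highest library, and the gene held (log2 3.51 ± 0.67, adjusted p = 0.0113). Its adjusted p was 0.089 with Y-linked RNA as a covariate. AOX1, aldehyde oxidase, was at 37.6, 154 and 118 CPM in the trio and 5.72, 24.3, 3.54, 6.01 and 1.84 CPM in the other five. AMB3 was the lowest of the trio (log2 3.65 ± 0.75, adjusted p = 0.0151), and the adjusted p was 0.0582 without AMB8 and 0.0568 without AMB10. Among called genes of the highest mean CPM, differences other than that of MEF2C were small. CPE, a carboxypeptidase that processes neuropeptides, was at 1676, 1685 and 1699 CPM in the trio and 1145, 1119, 1051, 843 and 1079.9 CPM in the other five. It was higher and held (log2 0.69 ± 0.11, adjusted p = 0.00503). SNAP25, of the synaptic fusion machinery, was higher at 1231 to 1293 CPM in the trio and 853 to 1036 CPM in the other five (log2 0.45 ± 0.09, adjusted p = 0.0155). Its adjusted p was 0.055 without AMB8 and 0.0784 without AMB10. MAPT, tau, was lower at 1090.2 to 1316 CPM in the trio and 1404 to 1767 CPM in the other five (log2 -0.43 ± 0.11, adjusted p = 0.0335). Its adjusted p was 0.0612 to 0.147 without AMB8, AMB10, AMB7 or AMB9.

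With Y-linked RNA as a covariate, 18 of the called genes described above did not pass. Beside NEUROD1, NFIA and VGLL3 these were RGS14, NPNT, EMX2, NEUROG2, TBR1, FOXP2, DPYSL5, DNAH9, HSD11B1, CRH, SNAP25, AOX1, MAPT, USP9Y and KDM5D, none of which held.

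AMB3 lay between the sides in many genes. In the 2275 genes called without AMB3, AMB3 was nearer the rest of its side in 1229 (54.0%). Its median position was 0.53 on a scale where 0 is the mean of the other side and 1 that of its own. AMB8 was nearer its own side in 91.8% of the 802 genes called without it, and AMB10 in 94.3% of 627. Libraries of the other five were nearer their side in 75.2% (AMB5) to 94.7% (AMB7). AMB3 differs from the other libraries in the ending of its title, which the labels do not explain.

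**Figure D5:**
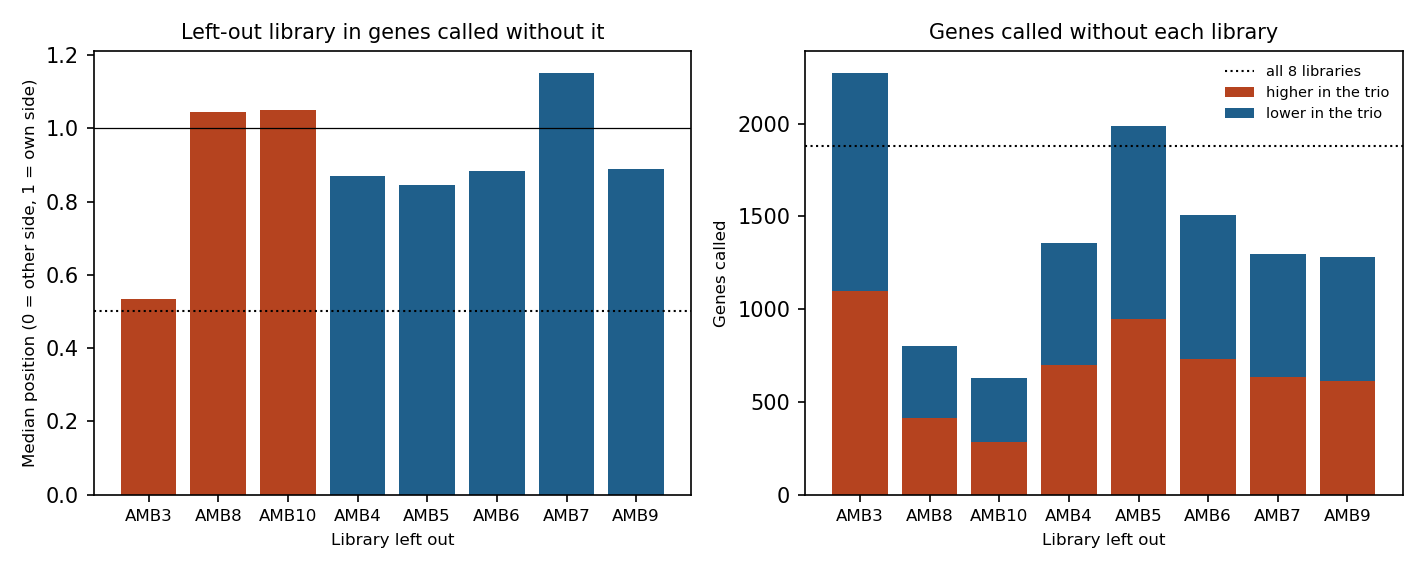
Left, median position of each left-out library in the genes called without it (0 is the mean of the other side, 1 the mean of its own side, dotted line halfway); right, genes called higher (red) and lower (blue) without each library, with the number from all 8 libraries dotted. AMB3 stands at 0.53 and the other libraries at 0.84 or above, and calls drop most without AMB10.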

How the data were processed

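Per the labels' protocols, total RNA was column-purified and strand-specific libraries were made from 25 ng. Per the file headers, the authors deposited raw estimated counts per RefSeq gene and normalized log2 values for 37053 genes; DESeq is named per the submitters' processing notes. Aligner, counter and build: not given in the sources used here. All gene identifiers matched RefSeq's table of Panubis1.0. Gene coordinates are those of the deposited table, whose starts equal that table's in 99.98% of genes. Estimated counts were rounded. Genes with a mean of at least 0.5 CPM over all 8 libraries (16846) were scaled by TMM and tested with edgeR 4.0.16 (quasi-likelihood, sides as the only term, Benjamini-Hochberg over all tested genes, called below 0.05; R 4.3.3). The SE of a log2 difference was derived from its F statistic. The biological coefficient of variation was 25.6%. Alternatives used DESeq2 1.42.0, limma 3.58.1 (voom, and the deposited log2 values), other scalings and filters, Y-linked RNA as a covariate, and each library left out.

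The sides and the 58 lists (929 tested genes) were chosen with earlier results of these data known. Genes were named by 4 rules: the 12 largest called differences in each direction (mean of at least 5 CPM, no overlap), per list the 3 tested members of smallest p and the 1 of highest mean CPM, a fixed set, and the 6 called genes of highest mean CPM in each direction. Of 126 genes named with values, 28 are list members chosen after their values were seen. A list's count is of tested members. Some genes that these rules name are not reported here. Scripts were tested on simulated data.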

Additional observations from a re-analysis of the deposited data

Results flagged for a closer look

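Within the other five, 6 of 126 named genes had 1 library that stood apart, its gap to the nearest library exceeding Dixon's 95% critical value for 5 samples on the log2(CPM + 0.5) scale; chance flags about 1 group in 20. TBR1 was lowest in AMB9 at 41.6 CPM, EBF3 was highest in AMB6 at 0.572 CPM, and PLXNA1 was highest in AMB5 at 391 CPM. AMB7 was highest for CACNG2 at 84.0 CPM, and lowest for TGFA at 10.2 CPM and for CPE at 843 CPM.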

How the results depend on the processing

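No called gene changed direction under any alternative in which it was tested. Calls numbered 1430 higher and 1587 lower with DESeq2, 470 and 550 with Y-linked RNA as a covariate, and, in a comparison chosen after seeing the data, 70 and 73 in the libraries without Y-linked RNA. Leaving out 1 library gave 284 to 1100 higher and 343 to 1175 lower calls. Other scalings, filters, voom, the deposited values and autosomal genes alone (the last also chosen after seeing the data) kept both counts within 1.5 times. Among named genes that were not called, the log2 difference ran over the leave-one-out fits from -0.010 to 0.21 for WFS1, from -0.026 to 0.39 for RELN, from -0.094 to 0.996 for MBP and from -0.996 to 0.014 for COL1A2, changing sign without AMB3, AMB3, AMB10 and AMB8; the cause was not tested. No paired analysis was run, because the replicate numbers are the library numbers and give no pairing between the sides. The smallest library held 40404878 counts.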
